A study of Danio rerio with 4 samples.

Results

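The mitochondrial genome of the zebrafish carries 37 of the 32520 genes in the count table, and they were chosen by chromosome alone, as the rows annotated to MT. They comprise 13 protein genes, 2 rRNA genes and 22 tRNA genes. Counts came from 4 RNA-seq libraries of embryonic tails at 3 dpf, 2 from asxl1-/- embryos and 2 from asxl1+/+ embryos, all on the AB background and all from crosses of asxl1+/- fish, without any treatment. The asxl1-/- fish carry, in every tissue, a CRISPR/Cas9 mutation that the paper predicts to truncate the C terminus of Asxl1, a chromatin regulator. Each library is a pool of about 20 tails, which hold muscle, skin, notochord and spinal cord besides the caudal hematopoietic tissue, so the values average over many cell types and over embryos. The library titles give the letters A and B within each genotype, and no label says what the libraries of a letter share or whether they come from separate clutches. The p-values therefore measure only the spread between these libraries, which may be technical.

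Mitochondrial DNA is a small circle present in many copies per cell, and most of its genes lie on one strand with few bases between them. In vertebrates each strand is transcribed as a long RNA that spans several genes and is cut at the tRNAs that separate the rRNAs and mRNAs. All of its proteins are subunits of the oxidative phosphorylation system, which moves electrons from NADH to oxygen through complexes I, III and IV and makes ATP at complex V. Most subunits of these complexes, and every subunit of complex II, are encoded in the nucleus, together with the polymerase, the processing enzymes and the protein factors of the mitochondrial ribosome. Muscle is among the tissues richest in mitochondria.

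Total counts per library were 19423797 (A) and 20027260 (B) in asxl1-/- and 22963847 (A) and 26281738 (B) in asxl1+/+. The mutated gene itself, asxl1 (ENSDARG00000036956, chromosome 23), had 1123 and 1145 counts in asxl1-/-, against 1508 and 1698 in asxl1+/+, or 57.2 and 57.6 CPM against 65.4 and 65.3 CPM. Its log2 fold change was -0.19 ± 0.0762 (standard error, SE), with an unadjusted p of 0.0349 and an FDR of 1.0 in edgeR's quasi-likelihood test. By qRT-PCR, the paper reports lower asxl1 in mutant tails of the same stage. The counts cannot show the predicted truncation. Skeletal muscle markers were abundant, with summed CPM of 94672 and 94686 in asxl1-/- and 97638 and 98680 in asxl1+/+ over 6 identifiers, none of them at 0. Of tissues outside the tail, lens and heart markers each summed to at most 0.151 CPM in any library, and exocrine pancreas markers (4 identifiers) to 2.19 (A) and 2.67 (B) CPM in asxl1-/- and 4.72 (A) and 14.0 (B) CPM in asxl1+/+. Liver and yolk markers (4 identifiers, none at 0) were well detected, with 2726 (A) and 2794 (B) CPM in asxl1-/- and 2765 (A) and 3109 (B) CPM in asxl1+/+. CPM is a count relative to the library total after edgeR's TMM scaling, whose factors lay between 0.990 and 1.01.

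The 37 genes lie close together, and this bears on what could be counted. In the GRCz11 annotation they run from position 951 to position 16596 of MT, 28 on the plus strand and 9 on the minus strand. Of the 36 pairs of neighbours, 10 overlap by up to 7 bases and 13 abut without a base between them. The widest gap, 32 bases, separates trnN from trnC, where many vertebrates have the origin of light-strand replication, and the next widest is 12 bases. The reads were 150 bases long, whereas the tRNA genes measure 68 to 77 bases. Read pairs were counted without regard to strand, and a pair that touched more than 1 gene was left out, which can bear most on the short genes. A read from an RNA antisense to a gene was counted for that gene. By the study's methods, total RNA was extracted, and the libraries were then made from its poly-A selected part. The labels name only total RNA. The effect of the selection on the levels was not tested.

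Mitochondrial genes took about 3 in 100 counts of each library. Their share was 2.86% (A) and 3.21% (B) in asxl1-/-, against 2.84% (A) and 3.11% (B) in asxl1+/+. The Wilson 95% interval was 2.85% to 2.86% in asxl1-/- A and 3.10% to 3.12% in asxl1+/+ B, and such intervals cover counting error only. With n = 2 per genotype, asxl1-/- averaged 3.03% with an SD of 0.250 and asxl1+/+ averaged 2.97% with an SD of 0.193, so they differed by 0.0603 percentage points (two-sided exact permutation test, p = 0.667, where 2 against 2 libraries allow no p below 0.33). This difference is smaller than the spread within either genotype. Both B libraries lay above both A libraries, by 0.354 percentage points in asxl1-/- and by 0.273 in asxl1+/+. In bulk tissue, the number of mitochondria-rich cells and the amount of mitochondrial RNA per cell cannot be told apart from such a share.

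**Figure D1:**
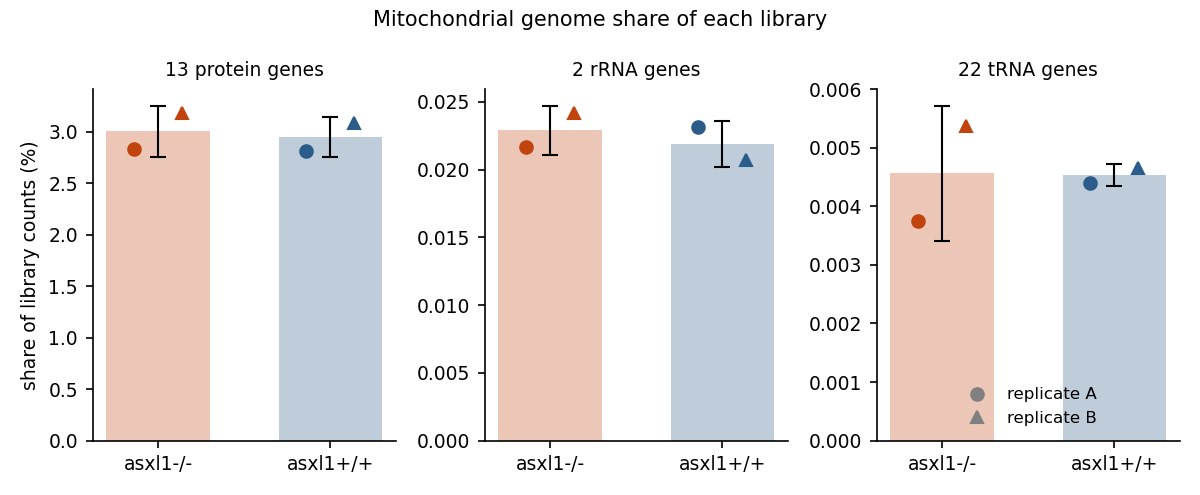
Share of library counts (%) on the 13 protein genes, the 2 rRNA genes and the 22 tRNA genes of the mitochondrial genome, with bars at the mean of each genotype, error bars of 1 SD (n = 2) and a point per library. The protein genes averaged 3.01% in asxl1-/- and 2.95% in asxl1+/+, and for these genes both B libraries lie above both A libraries.

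Nearly all of these counts fell on the protein genes. They held 99.1% of the mitochondrial counts in both asxl1-/- libraries, and 99.0% and 99.2% in the asxl1+/+ libraries. The rRNA genes held 0.757% and 0.753% in asxl1-/-, against 0.815% and 0.665% in asxl1+/+. On tRNA genes fell 0.131% and 0.168% in asxl1-/-, against 0.155% and 0.150% in asxl1+/+. This order of the classes was the same in every library.

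Levels along the genome were compared as CPM per kilobase of annotated length, averaged over the 4 libraries. Highest was mt-co1, the catalytic subunit of complex IV, at 7182 (6643 to 7639 over the libraries), which ranked 12 or 13 among all genes of each library by counts. Next came mt-co3, another core subunit of complex IV, at 4848, and mt-atp6, the proton channel subunit of ATP synthase, at 4710. The ranges of these 2 genes overlapped, and their order was the other way round in asxl1-/- B, the one exception to a fixed order of the 15 protein and rRNA genes in the 4 libraries. mt-co2, the subunit that takes electrons from cytochrome c, followed at 3585, and mt-cyb, the cytochrome b of complex III, at 2282. Both stood apart from their neighbours in the order.

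The 7 subunits of complex I came below these 5 genes. mt-nd1, at the junction of the membrane arm and the peripheral arm, was the highest of them at 1592 CPM per kilobase. mt-nd2 and mt-nd4, both proton-pumping subunits of the membrane arm, followed at 1286 and 1113 with overlapping ranges. mt-nd3 had 866, mt-nd4l 757 and mt-nd5, the largest membrane subunit, 686, with mt-nd3 overlapping mt-nd4l and mt-nd4l overlapping mt-nd5. mt-nd6, the only protein gene on the minus strand, had 536, between 504 and 572 over the libraries. The level of mt-co1 was between 9.94 and 11.0 times that of mt-nd5.

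Lowest of the protein genes was mt-atp8, a small subunit of ATP synthase, at 355 CPM per kilobase. It overlaps mt-atp6 by 7 bases, and in vertebrates both are translated from a shared mRNA. The level of mt-atp6 was 11.4 (A) and 13.9 (B) times that of mt-atp8 in asxl1-/-, against 13.4 (A) and 14.6 (B) times in asxl1+/+. The other pair with a shared mRNA, mt-nd4 and mt-nd4l, also overlaps by 7 bases, and its ratio was 1.39 (A) and 1.54 (B) in asxl1-/-, against 1.46 (A) and 1.48 (B) in asxl1+/+. mt-atp8 is 165 bases long and mt-nd4l 297, against 684 for mt-atp6 and 1381 for mt-nd4. The part of pairs left out for touching both genes in these ratios was not tested. Across the 13 protein genes, length and log2 level had a Pearson r of 0.32 and a Spearman rho of 0.40, a description over genes of the same libraries.

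**Figure D2:**
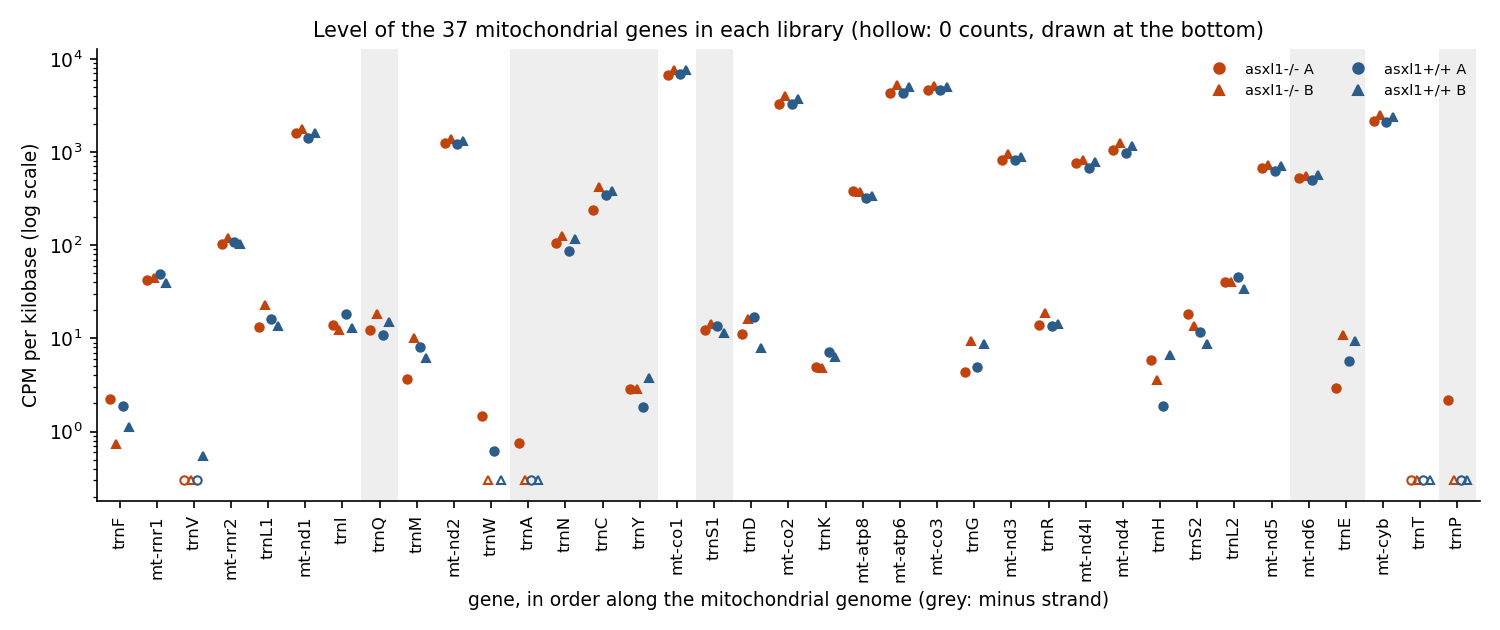
Level of each of the 37 genes as CPM per kilobase (log axis) in the 4 libraries, in order along the mitochondrial genome, with minus-strand genes on grey and zero counts as hollow symbols at the bottom. On average mt-co1 is at 7182, mt-rnr2 at 109 and most tRNA genes are under 20. Exceptions are trnC at 347, close to mt-atp8 at 355, trnN at 109, level with mt-rnr2, and trnL2 at 40.1. The 4 libraries lie close together for the protein and rRNA genes and further apart for tRNA genes with few counts.

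Both rRNAs of the mitochondrial ribosome were far below the mRNAs in these counts. By the methods the libraries were poly-A selected, and the effect of this on the rRNA levels was not tested. mt-rnr2, the large-subunit rRNA, had 174 and 201 CPM in asxl1-/-, against 184 and 171 CPM in asxl1+/+. mt-rnr1, the small-subunit rRNA, had 39.8 and 42.3 CPM in asxl1-/-, against 46.2 and 37.7 CPM in asxl1+/+. Values of the genotypes overlapped for both. Per kilobase, mt-rnr2 had 109 and mt-rnr1 43.6 on average, so mt-rnr2 was between 2.25 and 2.69 times as high, and mt-nd1, the gene downstream of mt-rnr2 past trnL1, was between 12.9 and 15.7 times as high as mt-rnr2.

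Of the 4040 counts on tRNA genes, 72.4% fell on trnN and trnC, the asparagine and cysteine tRNAs on either side of the 32-base gap. These 2 genes held 67.8% and 73.6% of the tRNA counts in asxl1-/-, against 70.7% and 75.5% in asxl1+/+. trnC had 341 and 609 counts in asxl1-/-, against 569 and 706 in asxl1+/+. trnN had 152 and 184 counts in asxl1-/-, against 146 and 219 in asxl1+/+. For both tRNAs each B library was above both A libraries as CPM, at 30.7 CPM (asxl1-/- B) and 27.2 CPM (asxl1+/+ B) for trnC against 17.4 CPM (asxl1-/- A) and 24.7 CPM (asxl1+/+ A). Both lie on the minus strand within a run of 4 tRNA genes there. Their outer neighbours in that run, trnA and trnY, had 1 and 18 counts over all libraries. A pair that touched both trnN and trnC was left out, so each pair counted touched only 1 of them and may have reached into the gap. Whether these counts come from tRNAs or from pieces of longer RNAs cannot be told apart in a count table.

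The other 20 tRNA genes shared 1114 counts. trnL2, a leucine tRNA, led them with 58 and 59 counts in asxl1-/-, against 76 and 65 in asxl1+/+. Glutamine, arginine and serine tRNAs had similar counts, as trnQ had 17 and 26 in asxl1-/- against 18 and 28 in asxl1+/+, trnR had 19 and 26 in asxl1-/- against 22 and 26 in asxl1+/+, and trnS1 had 17 and 20 in asxl1-/- against 22 and 21 in asxl1+/+. trnL1, trnI and trnD were alike, at 20 and 35, 20 and 18, and 15 and 22 counts in asxl1-/-, against 29 and 27, 31 and 25, and 27 and 14 in asxl1+/+. Methionine, glycine and glutamate tRNAs stayed under 20 counts in each library. A further 9 tRNA genes, with a mean under 10 counts, had 101 counts together, and trnT had none in any library, which allows up to 0.0338 CPM over the pooled total.

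Between the genotypes, none of the mitochondrial genes passed the test. Of the 37 genes, 28 passed the filter on low counts, namely all protein and rRNA genes and 13 tRNA genes, and 0 of these 28 had an FDR below 0.05 in edgeR's quasi-likelihood test, where 12 of 19970 genes did (0.0601%). The FDR was 1.0 for each of them. Before adjustment, 2 of the 28 had a p below 0.05, mt-nd1 and mt-atp8, against 3.08% of all genes tested. edgeR's exact test and DESeq2 called 0 of the 28, against 0.265% and 0.135% of all genes, and gave 0 of them an unadjusted p below 0.05, against 2.78% and 0.936% of all genes. Log2 fold changes of the protein genes lay between -0.04 and 0.19 with a median of 0.06, and standard errors between 0.0565 and 0.0895. The median over all genes tested was 0.00. A positive value was found for 11 of the 13 protein genes and 20 of the 28 genes tested, against 50.2% of all genes tested, but this count depended on single libraries. Without asxl1-/- A or without asxl1+/+ B, 13 of 13 protein genes were positive, and without asxl1-/- B or without asxl1+/+ A, 4 and 3 of 13 were.

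**Figure D3:**
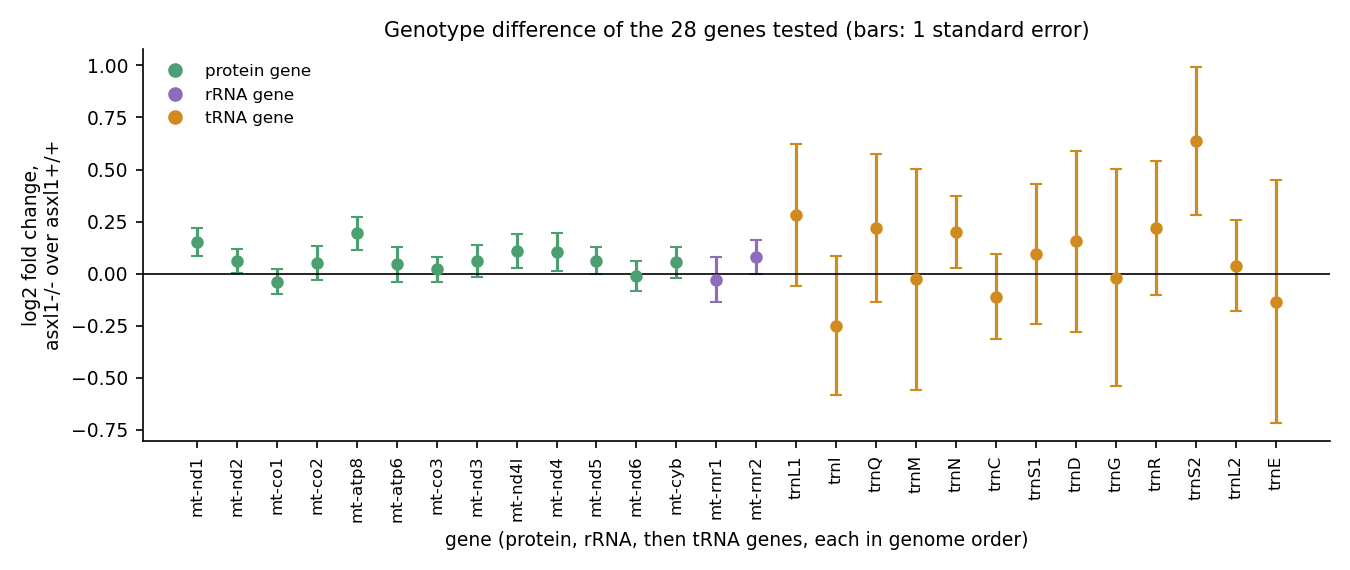
Log2 fold change, asxl1-/- over asxl1+/+, of the 28 mitochondrial genes tested, with bars of 1 standard error from edgeR's quasi-likelihood test. The protein genes lie between -0.04 and 0.19 with short bars, and the tRNA genes lie between -0.25 and 0.64 with bars of up to 0.582.

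Among the complex I genes, mt-nd1 (ENSDARG00000063895, MT from 3803 to 4777) had the largest log2 fold change. It had 1555 and 1713 CPM in asxl1-/-, against 1378 and 1561 CPM in asxl1+/+. Their ranges overlapped, since asxl1+/+ B was just above asxl1-/- A. Its log2 fold change was 0.15 ± 0.0661 (SE, unadjusted p = 0.0435, FDR 1.0, edgeR). Set against the asxl1+/+ library of the same letter, the asxl1-/- library was higher by 0.17 (A) and 0.13 (B) on the log2 scale. No label says that libraries of a letter are paired. Other protein genes also had the same sign in both letters, such as mt-nd2 with 0.063 (A) and 0.058 (B).

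The rest of complex I had smaller values. mt-nd4l had 224 and 242 CPM in asxl1-/-, against 201 and 232 CPM in asxl1+/+, a log2 fold change of 0.11 ± 0.0797 (SE). mt-nd4 had 1444 and 1740 CPM in asxl1-/-, against 1365 and 1598 CPM in asxl1+/+, a log2 fold change of 0.10 ± 0.0895 (SE). In both genes the B library was the higher one of each genotype and the genotypes overlapped. The same held for mt-nd5, with 1217 and 1336 CPM in asxl1-/- against 1150 and 1295 CPM in asxl1+/+, for mt-nd2, with 1320 and 1428 CPM in asxl1-/- against 1264 and 1372 CPM in asxl1+/+, and for mt-nd3, with 290 and 331 CPM in asxl1-/- against 285 and 310 CPM in asxl1+/+, each with a log2 fold change of 0.06. mt-nd6 was level, with 270 and 284 CPM in asxl1-/-, against 262 and 297 CPM in asxl1+/+, and a log2 fold change of -0.01 ± 0.0719 (SE).

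Complex III and complex IV genes overlapped between the genotypes as well. mt-cyb had 2431 and 2876 CPM in asxl1-/-, against 2426 and 2681 CPM in asxl1+/+, a log2 fold change of 0.06 ± 0.0740 (SE). mt-co1 had 10304 and 11680 CPM in asxl1-/-, against 10727 and 11848 CPM in asxl1+/+, and was one of the 2 protein genes with a negative log2 fold change, at -0.04 (SE 0.0602). Against the asxl1+/+ library of the same letter, which no label pairs with it, its asxl1-/- library stood at -0.06 (A) and -0.02 (B) on the log2 scale. mt-co2 had 2289 and 2750 CPM in asxl1-/-, against 2285 and 2583 CPM in asxl1+/+. mt-co3 had 3620 and 4056 CPM in asxl1-/-, against 3601 and 3964 CPM in asxl1+/+. For these 2 genes the A libraries were nearly equal and the log2 fold changes were 0.05 and 0.02.

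In complex V, mt-atp8 (ENSDARG00000063910, MT from 8894 to 9058) was the only protein gene whose genotypes did not overlap. It had 63.0 and 62.0 CPM in asxl1-/-, against 53.4 and 56.0 CPM in asxl1+/+, a log2 fold change of 0.19 ± 0.0784 (SE, unadjusted p = 0.0339, FDR 1.0, edgeR). mt-atp6 overlapped, with 2968 and 3575 CPM in asxl1-/- against 2963 and 3381 CPM in asxl1+/+, a log2 fold change of 0.04 ± 0.0828 (SE). Of the 28 genes tested, 2 had both asxl1-/- libraries above both asxl1+/+ libraries, mt-atp8 and trnS2, against 15.4% of all genes tested. None had both below, against 14.6% of all genes. trnS2 had 25 and 19 counts in asxl1-/-, against 19 and 16 in asxl1+/+, and its log2 fold change of 0.64 had a standard error of 0.356.

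Both rRNAs and the other tRNAs tested gave no unadjusted p below 0.05. The log2 fold change was 0.08 (SE 0.0809) for mt-rnr2 and -0.03 (SE 0.108) for mt-rnr1. For mt-rnr1 the letters went opposite ways, with the asxl1-/- library lower in A and higher in B. trnN had 0.20 (SE 0.174) and trnC -0.11 (SE 0.206). The lowest tRNA value was -0.25 for trnI (SE 0.33), and the standard errors of the tRNA genes reached 0.582 for trnE. The log2 fold changes of the protein genes, none of them called, lay between -0.04 and 0.19. Values of that size could not be told from 0 at the standard errors of the tRNA genes, of which 0.174 was the lowest.

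Most mitochondrial mRNAs were higher in the B libraries of both genotypes. Both B libraries were above both A libraries in 12 of the 13 protein genes, all but mt-atp8, and in 18 of the 28 genes tested, against 22.8% of all genes tested. Both B libraries were below both A libraries in 1 of the 28, trnI, against 23.3% of all genes. B exceeded A by between 0.07 (mt-nd6) and 0.27 (mt-atp6) on the log2 scale in asxl1-/- for these 12 genes, and by between 0.12 (mt-nd2) and 0.23 (mt-nd4) in asxl1+/+. Neither rRNA followed, since B was above A in asxl1-/- and below it in asxl1+/+ for both. Summed markers of liver and yolk, which lie outside the tail, were likewise higher in both B libraries (the levels given above), and red blood cell markers were lower in both, with 982 (A) and 909 (B) CPM in asxl1-/- and 956 (A) and 805 (B) CPM in asxl1+/+ over 5 identifiers. Of the 6 red blood cell symbols listed, 4 matched an identifier, and hbbe1.1 and hbbe2 did not. The part of these markers in the difference between the letters was not tested.

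Levels relative to each other were compared as shares, which do not depend on the total of the library. As a share of all mitochondrial counts, mt-co1 took 36.5% and 36.1% in asxl1-/-, against 38.0% and 37.7% in asxl1+/+, a difference of -1.56 percentage points. The complex IV genes together took 57.4% and 57.1% in asxl1-/-, against 58.8% and 58.5% in asxl1+/+. Those of complex I took 22.4% and 21.9% in asxl1-/-, against 20.9% and 21.2% in asxl1+/+, a difference of 1.06 percentage points. mt-nd1 alone took 5.51% and 5.29% in asxl1-/-, against 4.88% and 4.97% in asxl1+/+. Genotypes did not overlap in any of these shares, and the exact permutation test gives p = 0.33 for each, the smallest p it allows with 2 against 2 libraries. These shares were singled out after their values were seen, and since all shares sum to the same total, a lower share of mt-co1 raises the others. Within complex IV only mt-co1 separated by genotype. mt-co2 took 8.11% and 8.50% in asxl1-/- against 8.09% and 8.22% in asxl1+/+, and overlapped. mt-co3 took 12.8% and 12.5% in asxl1-/- against 12.8% and 12.6% in asxl1+/+, and overlapped too.

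Over the 13 protein genes, 7 had a higher share in both asxl1-/- libraries than in both asxl1+/+ libraries, namely mt-nd1, mt-nd3, mt-nd4l, mt-nd4, mt-nd5, mt-cyb and mt-atp8. When the counts of every gene were divided by the mitochondrial counts of the library in the same way, 8.11% of all genes tested were higher in this sense and 13.2% lower. This is not a like background, since the mitochondrial genes make up the counts divided by, and most of them were higher in the B libraries. The count of 7 is therefore not read as an excess. By CPM, 1 of the 13 protein genes had both asxl1-/- libraries above both asxl1+/+ libraries, against 15.4% of all genes tested. By share of the mitochondrial counts, mt-co1 was the only protein gene with both asxl1-/- libraries below both asxl1+/+ libraries. Complex V took 10.7% and 11.2% in asxl1-/-, against 10.7% and 10.9% in asxl1+/+, and overlapped. The summed markers of several tissues also separated by genotype. Among single genes tested, 15.4% had both asxl1-/- libraries above both asxl1+/+ libraries by CPM and 14.6% had both below. Red blood cell, liver and yolk, and lens markers overlapped, and heart markers were barely detected. Skeletal muscle markers were lower in both asxl1-/- libraries (the summed levels given above), and so were epidermis markers, with 28305 and 29394 CPM in asxl1-/- against 29587 and 30945 CPM in asxl1+/+ (3 identifiers). Neuron markers of the spinal cord had 467 and 488 CPM in asxl1-/- against 502 and 499 CPM in asxl1+/+ (4 identifiers), and neutrophil markers had 24.8 and 20.5 CPM in asxl1-/- against 30.6 and 32.8 CPM in asxl1+/+ (2 identifiers). Pancreas markers were lower in both asxl1-/- libraries as well. Notochord markers were higher, with 587 and 585 CPM in asxl1-/- against 582 and 556 CPM in asxl1+/+ (3 identifiers), as was the 1 macrophage marker matched, with 6.97 and 5.74 CPM in asxl1-/- against 5.64 and 4.88 CPM in asxl1+/+. Apart from 1 heart marker, no matched marker in any list was at 0 in all libraries. Some listed symbols matched no identifier and are not in the sums. They were mpx and cpa5 (neutrophils), mpeg1.1 and mfap4.1 (macrophages), hbbe1.1 and hbbe2 (red blood cells), mylpfa (skeletal muscle) and krtt1c19e (epidermis). The part of these tissues in the shares was not tested.

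**Figure D4:**
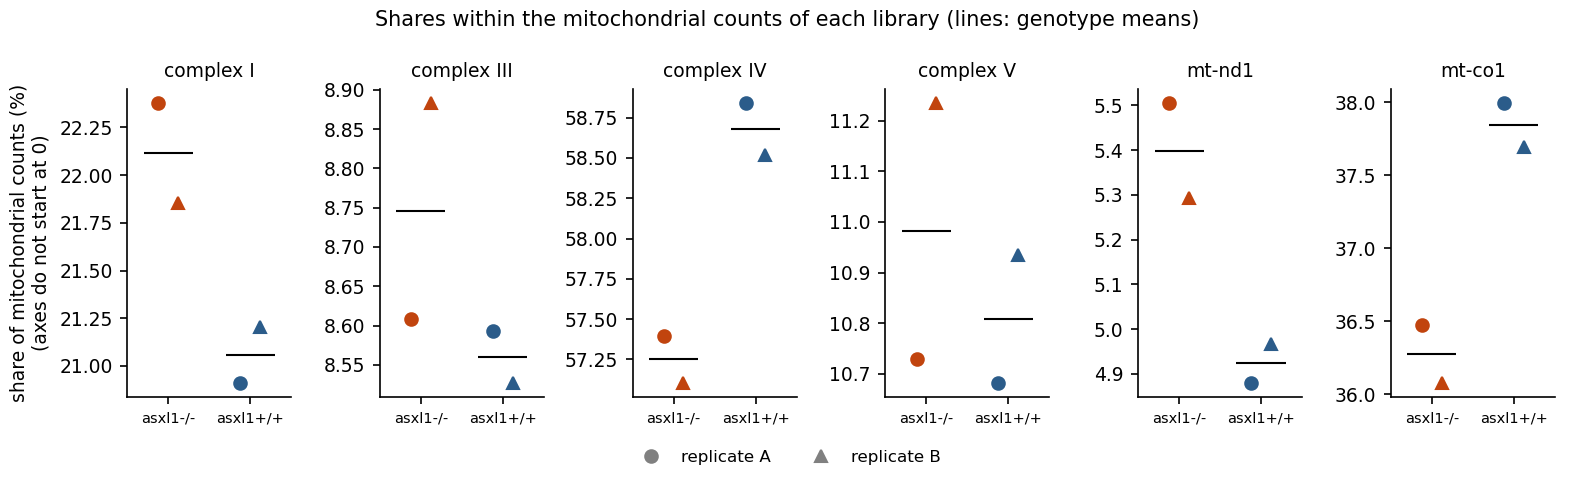
Share of all mitochondrial counts (%) taken by the mitochondrial genes of each complex, by mt-nd1 and by mt-co1, with a point per library and a line at each genotype mean (axes do not start at 0). The complex I genes took 22.1% on average in asxl1-/- and 21.1% in asxl1+/+, and mt-co1 took 36.3% in asxl1-/- and 37.8% in asxl1+/+.

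The nuclear genes for the same complexes gave no call either. Of 99 symbols in the list, 93 matched 94 identifiers, 90 of these were tested, and 0 passed an FDR of 0.05 in the quasi-likelihood test (0.0601% of all genes did), in the exact test or in DESeq2, with 0 at an unadjusted p below 0.05 in the first. Their median log2 fold change was 0.06 and 80 of the 90 were positive, against 50.2% of all genes tested. Positive values were found for 34 of 38 genes of complex I, 2 of 4 of complex II, 8 of 9 of complex III, 18 of 20 of complex IV, 17 of 18 of complex V and the 1 cytochrome c gene tested. Both asxl1-/- libraries were above both asxl1+/+ libraries in 51 of the 90, against 15.4% of all genes, and below them in 3, against 14.6%. Summed over the list, the level was 14569 and 14541 CPM in asxl1-/-, against 14097 and 14176 CPM in asxl1+/+.

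**Figure D5:**
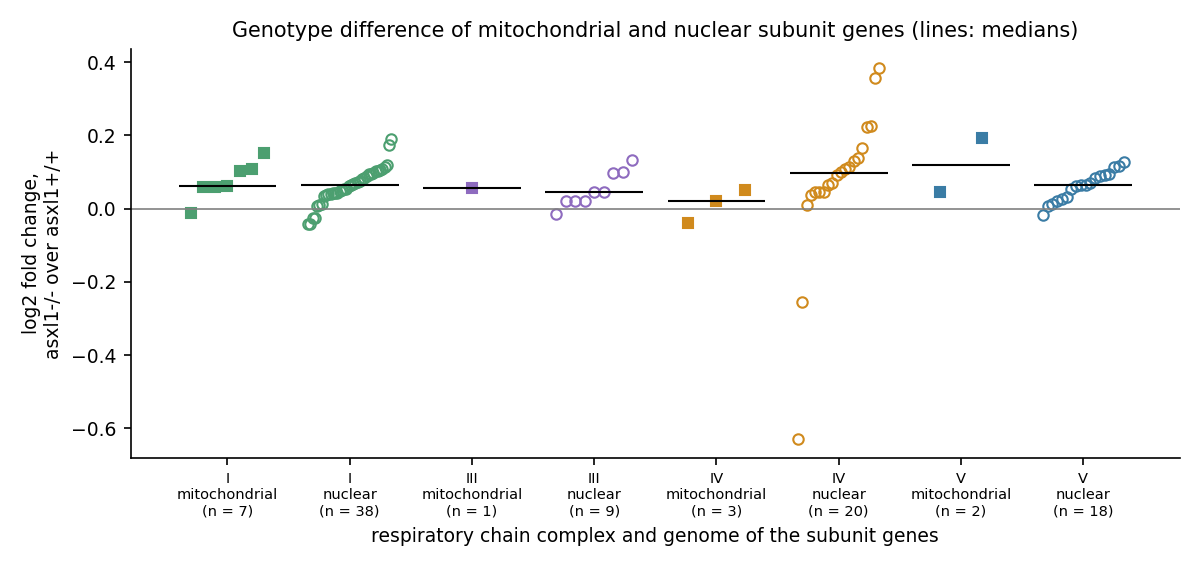
Log2 fold change, asxl1-/- over asxl1+/+, of the subunit genes of complexes I, III, IV and V, with mitochondrial genes as filled squares, nuclear genes as open circles and medians as lines. Most genes of both genomes lie slightly above 0, and the nuclear list has a median of 0.06.

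Separation by letter was rarer among these nuclear genes than among all genes tested. Both B libraries were above both A libraries in 13 of the 90 and below in 10, against 22.8% and 23.3% of all genes. The most abundant were ATP5F1B, the catalytic beta subunit of ATP synthase, with 2614 and 2542 CPM in asxl1-/- against 2587 and 2540 CPM in asxl1+/+, and atp5mc3b, a subunit of its rotor ring, with 582 and 562 CPM in asxl1-/- against 582 and 552 CPM in asxl1+/+. The electron carrier cycsb had 516 and 525 CPM in asxl1-/-, against 481 and 517 CPM in asxl1+/+. COX5B (ENSDARG00000015978), a subunit of complex IV, had 463 and 438 CPM in asxl1-/-, against 446 and 448 CPM in asxl1+/+. Other identifiers named COX5B were low, with log2 fold changes of opposite sign. ENSDARG00000068738 averaged 7.36 CPM with 0.23 (SE 0.185), and ENSDARG00000113254 averaged 0.841 CPM with -0.63 (SE 0.355). ATP5PB, of the stator of ATP synthase, had 455 and 446 CPM in asxl1-/- against 421 and 438 CPM in asxl1+/+. Of the 5 most abundant genes ATP5PB had the largest log2 fold change, 0.07 (SE 0.0541). Per kilobase, the median mitochondrial gene was between 10.7 and 11.7 times as high as the median nuclear gene in complex I over the libraries, and between 57.4 and 68.1 times as high in complex IV. In complex III it was between 19.4 and 22.8 times as high, and in complex V between 17.5 and 21.7 times. Complex III has 1 mitochondrial gene, mt-cyb. Complex V has 2, mt-atp6 and mt-atp8, whose mean levels of 4710 and 355 CPM per kilobase lie far to either side of their median. The nuclear medians cover every matched identifier, 40 in complex I and 20 in complex IV. Some of these are nearly empty, such as NDUFS1 with 1 count in asxl1-/- A, and such identifiers lower the nuclear medians. The length used is each gene's annotated exonic length, which for nuclear genes can exceed the length of 1 mRNA and so lower the level. The part of either in these ratios was not tested.

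The nuclear genes that transcribe, process and translate the mitochondrial genome gave no call. Of 49 symbols 45 matched and were tested, 0 passed an FDR of 0.05 in edgeR's quasi-likelihood test, its exact test or DESeq2, 0 had an unadjusted p below 0.05 in the first, and 22 of 45 were positive, with a median log2 fold change of -0.01. Both asxl1-/- libraries were above both asxl1+/+ libraries in 13 of the 45, against 15.4% of all genes, and below them in 2, against 14.6%. LRPPRC, which stabilizes mitochondrial mRNAs in mammals, had 125 and 123 CPM in asxl1-/-, against 117 and 121 CPM in asxl1+/+. TUFM, the mitochondrial elongation factor Tu, had 91.1 and 89.2 CPM in asxl1-/-, against 86.3 and 87.0 CPM in asxl1+/+. For both, the asxl1-/- libraries were the higher ones, by 0.06 on the log2 scale. HSD17B10, a subunit of the mitochondrial RNase P in mammals, had 43.2 and 41.7 CPM in asxl1-/- against 40.4 and 40.8 CPM in asxl1+/+. The elongation factor GFM1 had 40.1 and 39.3 CPM in asxl1-/- against 38.1 and 39.3 CPM in asxl1+/+, and ptcd3, a protein of the mitochondrial ribosome, had 35.2 and 37.6 CPM in asxl1-/- against 34.2 and 36.7 CPM in asxl1+/+. Both B libraries were above both A libraries in 21 of the 45 genes, against 22.8% of all genes, and below in 6, against 23.3%.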

How the data were processed

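RNA-seq libraries of pooled 3 dpf tails, 2 from asxl1-/- and 2 from asxl1+/+ embryos, were grouped by their labels. Reads were mapped to GRCz11 with STAR, and the deposited values are raw counts per gene that the authors made with featureCounts 1.6.4 on the exons of Ensembl release 96, with no strand, normalization or filter, and without pairs that touched several genes or mapped to several places. The deposited table also gives each gene's length, in a column of another kind. The deposited counts of 32520 genes were read into edgeR 4.0.16 (R 4.3.3), filtered with filterByExpr (19970 genes kept), scaled by TMM and tested with the quasi-likelihood test on genotype alone, with Benjamini-Hochberg adjustment over all genes tested (FDR threshold 0.05). Standard errors are the log2 fold change divided by the square root of F. For their own calls the authors used the exact test of edgeR. At the same FDR threshold the paper reports more called genes than the exact test gave here, and the reason was not tested.

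Mitochondrial rRNA and tRNA genes were named by identical positions in a RefSeq table of the GRCz12tu assembly (37 of 37), which also gave 13 of 13 protein genes the name found by identifier. Nuclear names came from a table that names 29201 identifiers. All protein and rRNA genes and the tRNA genes with a mean of at least 10 counts are described in full, and of each nuclear list the 5 genes with the highest mean CPM and any called gene. The members and lists were chosen with earlier results of these data known. Replicates of a genotype differed by more than counting noise (chi-square per degree of freedom 4.01 in asxl1-/- and 5.27 in asxl1+/+). Between 19423797 and 26281738 counts per library make counting error small for the mRNAs, so that precision is limited by 2 libraries per genotype. Alternatives were the replicate letter as a block, the exact test, DESeq2 1.42.0 without independent filtering, no TMM factors, no filter, library sizes without mitochondrial genes, an FDR of 0.01 and each library left out in turn. The alternatives for shares of mitochondrial counts were chosen after seeing the data. The fits were tested on simulated data. pandas 2.3.3, SciPy 1.17.1 and matplotlib 3.10.9, under Python 3.11.15, served for tables, exact tests and plots.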

Additional observations from a re-analysis of the deposited data

How the results depend on the processing

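With 2 libraries per genotype, the mitochondrial and nuclear lists gave 0 calls under every alternative run, except that the replicate block called 1 mitochondrial gene, mt-nd1 (log2 fold change 0.15, FDR 0.000133). Libraries of a letter share only that letter in the labels. Their deviations from the genotype means correlated at 0.27 over 19970 genes, the block lowered the biological coefficient of variation to 3.49%, against 8.81% without it, and it called 301 genes (152 higher and 149 lower in asxl1-/-, 1.51% of those tested), against 12. Over all genes, the exact test called 53, DESeq2 27, the fit without a filter 19, the FDR of 0.01 left 2, and leaving out each library gave 9 to 80. The cause was not tested. No alternative that kept all 4 libraries reversed a mitochondrial gene. The nuclear oxidative phosphorylation genes had 79 or 80 positive values under those alternatives and 73 to 77 without single libraries.

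Leaving out single libraries turned the sign of 7 to 13 mitochondrial genes, and the median of the protein genes lay between -0.04 and 0.17. The log2 fold change then ranged from -0.13 to 0.051 for mt-co1, from -0.089 to 0.18 for mt-co2, from -0.064 to 0.10 for mt-co3, from -0.10 to 0.17 for mt-atp6 and from -0.071 to 0.17 for mt-cyb. For complex I it ranged from -2.07e-05 to 0.12 for mt-nd2, from -0.040 to 0.16 for mt-nd3, from -0.037 to 0.23 for mt-nd4, from -0.022 to 0.15 for mt-nd5 and from -0.10 to 0.082 for mt-nd6. Among the rRNAs it ranged from -0.17 to 0.12 for mt-rnr1 and from -0.029 to 0.18 for mt-rnr2. Among the tRNAs it ranged from -0.17 to 0.62 for trnL1, from -0.11 to 0.49 for trnQ, from -0.93 to 0.52 for trnM, from -0.58 to 0.24 for trnC, from -0.026 to 0.21 for trnS1, from -0.32 to 0.79 for trnD, from -0.66 to 0.46 for trnG, from -0.016 to 0.42 for trnR, from -0.15 to 0.24 for trnL2 and from -1.35 to 0.51 for trnE. Genes that kept their sign also moved. mt-nd1 ranged from 0.064 without asxl1+/+ A to 0.25 without asxl1+/+ B, mt-nd4l from 0.0060 to 0.22 for the same libraries, mt-atp8 from 0.16 to 0.23, trnN from 0.012 to 0.43, trnS2 from 0.42 to 0.85 and trnI from -0.48 to -0.0016. The difference in the mitochondrial share of the library ranged from -0.117 to 0.237 percentage points, so its sign rests on which libraries are used.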
